A study of Mus musculus with 16 samples.

Results

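The ADAM proteases (a disintegrin and metalloproteinase) examined here were Adam8, Adam9, Adam10, Adam12, Adam15, Adam17, Adam19, Adam23 and Adamdec1, 9 of the 55604 genes listed, in 2 subsets of tumor-associated macrophages (TAMs) from mouse ovarian cancer. They were picked by name with values of this same contrast known, so their levels, fold changes and calls are given as a description, with no p-value and nothing concluded from them. Of the 9 genes, 7 passed the filter on low counts (10 or more counts in 4 or more of the 8 libraries), and Adam12 and Adamdec1 did not. Gene coordinates are those of GENCODE M21 on GRCm38.

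All samples were TAMs from the peritoneal cavity of C57BL/6 mice inoculated with ID8, a mouse ovarian epithelial cancer line that seeds the peritoneum. The methods describe female mice of 6 to 8 weeks of age and sorting at 6 to 7 weeks after inoculation. Tim-4+ TAMs were taken with an antibody to Tim-4, and Tim-4- TAMs were taken by F4/80 from the cells left over, so the Tim-4 difference is a sort even though the labels enter it as genotype. The design was 4 numbered pairs (793, 784, 783 and 779), each with 1 Tim-4+ and 1 Tim-4- library, and values below follow that order. Whether a library came from 1 mouse or several was not given in the sources used here. These are bulk samples, so more cells of a type and more RNA per cell cannot be told apart.

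ADAM proteins are anchored in the membrane and most of them cut the outer part off other membrane proteins, a step called shedding that frees cytokines, growth factors and soluble receptors. They are made as inactive precursors whose prodomain is removed by furin-type convertases. ADAM10 and ADAM17 are the general sheddases of leukocytes, and ADAM17 is best known for releasing TNF. ADAM8 is a sheddase of myeloid cells, and ADAM19 (meltrin beta) can cut neuregulins.

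Counts on genes totaled 53527928 to 57768202 in Tim-4+ and 55618306 to 69594245 in Tim-4- libraries, and 3 counts corresponded to 0.0431 to 0.0560 CPM (counts scaled to library size). Timd4, which encodes Tim-4, measured 1160, 1743, 524 and 1166 CPM in Tim-4+ TAMs and 84.9, 11.1, 22.3 and 1.96 CPM in Tim-4- TAMs, which followed the labels in every pair. The 6 macrophage markers were present in every library, with a summed level of 42994 to 55467 CPM in Tim-4+ and 20521 to 32940 CPM in Tim-4- libraries, and 5 of the 6 were called higher in Tim-4+ TAMs. The 8 mesothelial and tumor epithelial markers (Msln, Upk3b, Krt8, Krt18, Krt19, Wt1, Epcam and Muc16) summed to 104, 194, 390 and 222 CPM in Tim-4+ and 414, 1266, 877 and 1908 CPM in Tim-4- libraries, and all 8 were called lower in Tim-4+ TAMs. Fibroblast markers summed to 19.6 to 90.8 CPM in Tim-4+ and 50 to 173 CPM in Tim-4- libraries. Dendritic, lymphocyte and granulocyte or mast cell markers each summed to at most 29.4 CPM. Within these 3 lists, Ncr1 and Ly6g did not exceed 5 counts.

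Adam8 and Adam19 were the members whose levels separated the subsets, in opposite directions. Adam8 (chr7:139978932-139992562, minus strand) measured 673, 925, 635 and 455 CPM in Tim-4+ TAMs and 221, 194, 219 and 60 CPM in Tim-4- TAMs. Every Tim-4+ library lay above every Tim-4- library, and the Tim-4- library of pair 779 stood well below the other 3. The fitted log2 fold change (Tim-4+ over Tim-4-) was 2.08 ± 0.25 (SE, 4 pairs), a 4.22-fold higher level, and the 4 pair ratios ran from 1.54 to 2.92 on the log2 scale. Leaving out pair 779 gave 1.79 and leaving out pairs 784 and 779 together gave 1.56. The library of pair 779 with the lowest Adam8 also had the highest summed mesothelial and tumor epithelial markers. Its macrophage markers summed to 22235 CPM, against 20521 CPM in the Tim-4- library of pair 784, where Adam8 was 194 CPM. The part of these cells in the Adam8 level was not tested.

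Adam19 (chr11:46055992-46147343, plus strand) measured 1.62, 8.72, 5.59 and 2.93 CPM in Tim-4+ TAMs and 14.3, 49.8, 35.7 and 12.7 CPM in Tim-4- TAMs. The subsets did not overlap, and within each pair the Tim-4- library was the higher. The counts behind these values were 77 to 436 in Tim-4+ and 827 to 3648 in Tim-4- libraries. The log2 fold change was -2.60 ± 0.19, so the level was 6.07-fold lower in Tim-4+ TAMs, with pair ratios of -3.11 to -2.10. Adam19 varied more among libraries of 1 subset than Adam8, Adam9, Adam10, Adam15 or Adam17. Its highest library exceeded its lowest 5.39-fold in Tim-4+ and 3.93-fold in Tim-4- TAMs, with pair 784 highest in both subsets. The summed mesothelial and tumor epithelial markers of the Tim-4- libraries were 414, 1266, 877 and 1908 CPM in pair order. In Tim-4- TAMs Adam19 was lowest in pair 779, close to its level in pair 793. The part of mesothelial and tumor epithelial cells in the Adam19 level was not tested. Without pairs 784 and 779 the log2 fold change was -2.90 ± 0.21.

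**Figure D1:**
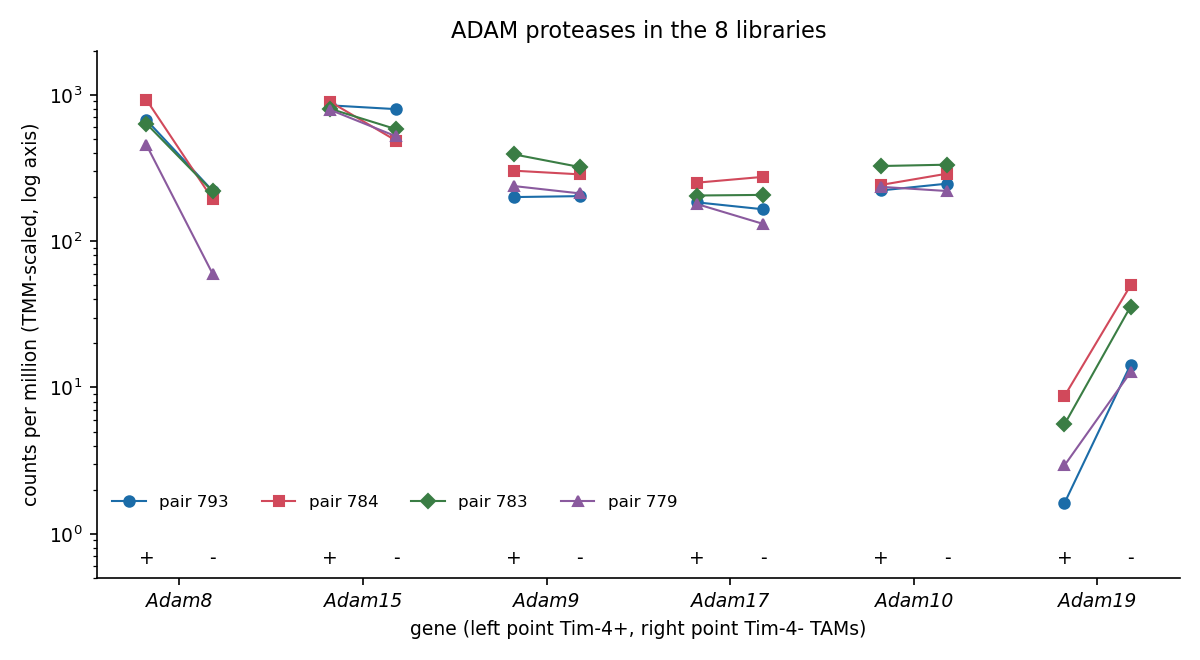
CPM (TMM-scaled, log axis) of 6 members in the 8 libraries, with the Tim-4+ library of a pair on the left, its Tim-4- library on the right and a line joining them. Adam8 is lower and Adam19 higher on the right in all 4 pairs, while the lines of Adam9, Adam10 and Adam17 run nearly flat.

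By the call used for all genes (an adjusted p under 0.05 in edgeR's quasi-likelihood test, blocked by pair, with Benjamini-Hochberg adjustment over 16861 genes), 1 of the 7 members tested was higher, Adam8, and 1 was lower, Adam19. Of all genes tested, the call was higher for 8.97% and lower for 8.43%, and 12.8% had ranges that did not overlap between the subsets, against 2 of the 7 members. The members were selected from this contrast, so nothing is read from these counts. The median log2 fold change of the 7 was 0.13, beside a median near 0 for all genes.

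The stretch just upstream of the start site is shown for these 2 genes, because they are the members whose RNA differed. The 250 bases are from RefSeq on GRCm38.p6, 5′ to 3′ on the gene's strand and ending just before the start site, at chr7:139992563-139992812 for Adam8 and chr11:46055734-46055983 for Adam19. Capitals mark matches to a motif searched on both strands.
Adam8: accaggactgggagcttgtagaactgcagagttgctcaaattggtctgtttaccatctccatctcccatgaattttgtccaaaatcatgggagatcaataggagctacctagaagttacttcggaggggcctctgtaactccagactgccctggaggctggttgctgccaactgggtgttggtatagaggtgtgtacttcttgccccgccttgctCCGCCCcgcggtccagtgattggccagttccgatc
Adam19: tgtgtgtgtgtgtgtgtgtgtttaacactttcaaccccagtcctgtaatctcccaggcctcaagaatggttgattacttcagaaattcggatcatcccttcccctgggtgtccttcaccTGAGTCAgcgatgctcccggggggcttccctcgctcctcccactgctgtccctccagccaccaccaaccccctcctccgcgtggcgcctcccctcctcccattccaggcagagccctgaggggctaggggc
The motifs were picked with the values known. The core letters bound by the myeloid factor PU.1 were searched as GAGGAA, the site of the AP-1 factors as TGAGTCA, the site of GATA-type zinc finger factors as AGATAA, the GC box bound by Sp1 as GGGCGG and the TATA box of core promoters as TATAAA. The Adam8 window held 1 GC box, on the opposite strand and starting 35 bases before the start site, and 32.7% of the 32851 windows in the table hold one. The Adam19 window held 1 AP-1 match, starting 131 bases before the start site, and 4.46% of windows hold one. Adam19 has 3 windows in the table, and the one nearest to the annotated gene start is shown. None of the other motifs was found in either window, which says only that these letters are absent from them.

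Windows were found for 6 of the 9 members. Adam8 and Adam19 held 6 and 7 CpG dinucleotides, with a GC content of 52.8% and 60%, against a median of 6 CpG and 52.4% over all windows. The windows of Adam10, Adam15, Adam17 and Adam23 held 29, 18, 23 and 27 CpG, with a GC content of 62% to 74%. GC boxes were present in those of Adam10, Adam15 and Adam17.

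Adam15, Adam9, Adam17 and Adam10 were abundant in both subsets. Adam15 (chr3:89338542-89349996), a disintegrin that also binds integrins, measured 847, 897, 803 and 790 CPM in Tim-4+ TAMs and 798, 486, 582 and 520 CPM in Tim-4- TAMs. Its Tim-4+ levels were the tightest of the members, with the highest library 1.13-fold above the lowest, and the subsets overlapped through pair 793. The log2 fold change was 0.51 ± 0.16, and 0.27 without pairs 784 and 779.

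Adam17 (chr12:21323509-21373632), the TNF-releasing sheddase, measured 184, 251, 205 and 179 CPM in Tim-4+ TAMs and 165, 275, 207 and 131 CPM in Tim-4- TAMs. The fitted difference was 0.12 ± 0.13 on the log2 scale, with 2 pairs in each direction. Adam17 shares part of its locus with Iah1 on the opposite strand, which reached at most 27.9 CPM, and whether the counting used strand was not stated.

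Adam10 (chr9:70678997-70780229), the sheddase of Notch receptors and several chemokines, measured 222, 242, 326 and 235 CPM in Tim-4+ TAMs and 247, 289, 333 and 220 CPM in Tim-4- TAMs. The difference was -0.09 ± 0.12 on the log2 scale. Adam9 (chr8:24949611-25016927), a widely expressed protease, measured 200, 303, 392 and 238 CPM in Tim-4+ TAMs and 203, 286, 321 and 212 CPM in Tim-4- TAMs, a log2 fold change of 0.13 ± 0.11. For these 3 genes the groups overlapped almost fully and the difference was about the size of its SE. When libraries were scaled by total counts, the median of all genes moved to -0.36 and Adam9 and Adam17 read -0.23 and -0.24, but relative to that median they stayed at 0.13 and 0.12.

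Adam23, Adam12 and Adamdec1 were near or at the limit of detection. Adam23 (chr1:63445891-63596276) encodes a family member without protease activity that acts in adhesion. It measured 0.042, 1.02, 1.10 and 1.14 CPM in Tim-4+ TAMs and 0.479, 0.588, 0.280 and 0.046 CPM in Tim-4- TAMs. The single low Tim-4+ library belonged to pair 793, and the log2 fold change of 1.18 ± 1.15 ran from 0.26 to 2.20 when 1 pair was left out at a time, lowest without pair 779 and highest without pair 793. Adam12, another meltrin like Adam19, had 0 to 7 counts per library. Adamdec1, a decysin known from macrophages of the gut, had 0 counts in all 8 libraries. That allows at most 3 counts, or 0.0431 to 0.0560 CPM before TMM scaling, by counting error alone.

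To compare levels between genes, counts were divided by the exon length of each gene and scaled to TPM, a unit in which the per-length levels of all genes sum to the same total in each library. TMM factors, 0.833 to 0.948 in Tim-4+ and 1.05 to 1.18 in Tim-4- libraries, were used for CPM but not for TPM. The subsets therefore compare differently in TPM and CPM, as for Adam9, with means of 182 and 225 TPM but 283 and 256 CPM. In Tim-4+ TAMs the order was Adam8 at 382 ± 119 TPM (SD, n = 4), Adam15 at 355 ± 34.5, Adam9 at 182 ± 65.1, Adam10 at 137 ± 34.2, Adam17 at 75.1 ± 14.5 and Adam19 at 1.75 ± 1.20 TPM. The means of Adam8 and Adam15 differed by less than the spread between libraries, and within pair 779 Adam15 was the higher. Those of Adam9 and Adam10 also differed by less than the larger of their SDs, but Adam9 was the higher within every Tim-4+ library. In Tim-4- TAMs Adam15 led at 346 ± 60.8 TPM, followed by Adam9 at 225 ± 60.3, Adam10 at 200 ± 43.4, Adam8 at 135 ± 59.5, Adam17 at 99.3 ± 39.0 and Adam19 at 14.7 ± 10.3 TPM. There the neighbors Adam9 and Adam10, and Adam8 and Adam17, lay within their spread. Within libraries their order was reversed in pair 793 for Adam9 and Adam10 and in pair 779 for Adam8 and Adam17.

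The summed level of the 9 members was 1134 ± 224 TPM in Tim-4+ and 1020 ± 191 TPM in Tim-4- TAMs. In this unit, without TMM factors, the difference was smaller than the spread between libraries of a subset. Within each pair the Tim-4+ library was the higher, at 1063 against 1010 TPM, 1325 against 1171, 1298 against 1146 and 849 against 755 TPM. The make-up of the sum also differed. In Tim-4+ TAMs Adam8 held 33.2% ± 5.56 of the sum, against 12.7% ± 4.46 in the Tim-4- subset, whereas Adam19 held 0.146% ± 0.0795 and 1.36% ± 0.782. Adam15 held 31.9% ± 3.76 and 34.7% ± 7.79. The per-length level of Adam8 was 3.92 to 5.68 times that of Adam17 in Tim-4+ libraries and 0.709 to 2.06 times in Tim-4- libraries. These shares contain the difference by which Adam8 and Adam19 were chosen, and they are not independent of it.

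**Figure D2:**
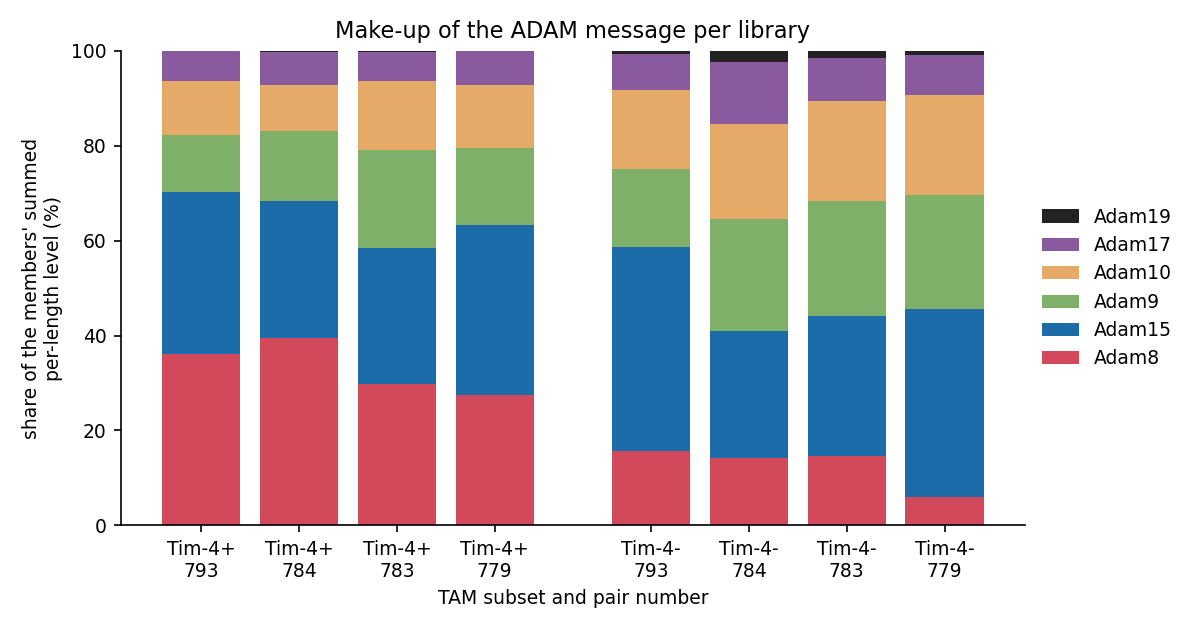
Share of the summed per-length level of the 9 members (percent, vertical axis) held by 6 of them in each library, grouped by TAM subset and pair. Adam8 takes 27.4% to 39.5% of each Tim-4+ library and 6.05% to 15.7% of each Tim-4- library, and Adam19 is a thin band visible mainly in Tim-4- TAMs.

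Among the genes whose log2 CPM followed Adam8 most closely over the 8 libraries, out of the 8768 genes averaging 10 CPM or more, were Lyst and Eno1b with a Pearson r of 0.98, and Cav2 and Ppard with 0.97. Lyst encodes a regulator of lysosome size and Ppard a lipid-sensing nuclear receptor. For Adam19 they were Olfm1 and Gpr107 with r = 0.96, Htt and Dcp2 with 0.95, and Abcb10 with 0.94. Their own differences between the subsets were smaller than those of the gene they followed, from 0.54 to 0.90 on the log2 scale for the 4 genes named for Adam8 and from -0.71 to -0.23 for those named for Adam19. The 8 points are 4 pairs from 2 sorts, so a gene that merely differs between the subsets already correlates.

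The family holds 25 other ADAM genes in the annotation, most of them known from the testis. Of these, 13 had 0 counts in all 8 libraries (Adam18, Adam1b, Adam20, Adam24, Adam26a, Adam26b, Adam29, Adam34, Adam39, Adam5, Adam6a, Adam6b and Adam7), 5 more had few counts (Adam2, Adam21, Adam25, Adam28 and Adam3), and 7 were tested. None of the 7 was called by edgeR, and 2 had an unadjusted p under 0.05, both lower in Tim-4+ TAMs. Of all 16861 genes tested, 5671 had an unadjusted edgeR p under 0.05, so nothing is read from that count.

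Adam33, an ADAM known from mesenchymal and smooth muscle cells, was the abundant gene among them. It measured 12.0, 53.0, 15.1 and 9.50 CPM in Tim-4+ TAMs and 30.5, 77.2, 24.4 and 60.9 CPM in Tim-4- TAMs. The Tim-4- library was higher in all 4 pairs, but the groups overlapped because the Tim-4+ library of pair 784 stood far above the other 3. The log2 fold change was -1.29 ± 0.36 (edgeR adjusted p = 0.0536). DESeq2, run as an alternative, called it at an adjusted p of 0.00092, and over all alternatives the adjusted p ran from 0.00092 to 0.323. In Tim-4- TAMs Adam33 averaged 32.9 ± 19.1 TPM, above the 14.7 TPM of Adam19. Adam1a, a testis gene at 0.187 and 0.551 CPM, gave -1.70 ± 0.52 (edgeR adjusted p = 0.0595). It was called by DESeq2 (adjusted p = 0.0242) and with total counts in edgeR (adjusted p = 0.0219), and over all alternatives the adjusted p ran from 0.0219 to 0.238. The other 5 reached at most 1.26 CPM, with log2 fold changes of -0.72 for Adam4, -0.19 for Adam32, -0.07 for Adam30, 0.26 for Adam22 and 0.32 for Adam11, each smaller than its SE. Adam11 and Adam22 read -0.05 and -0.10 when scaled by total counts.

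**Figure D3:**
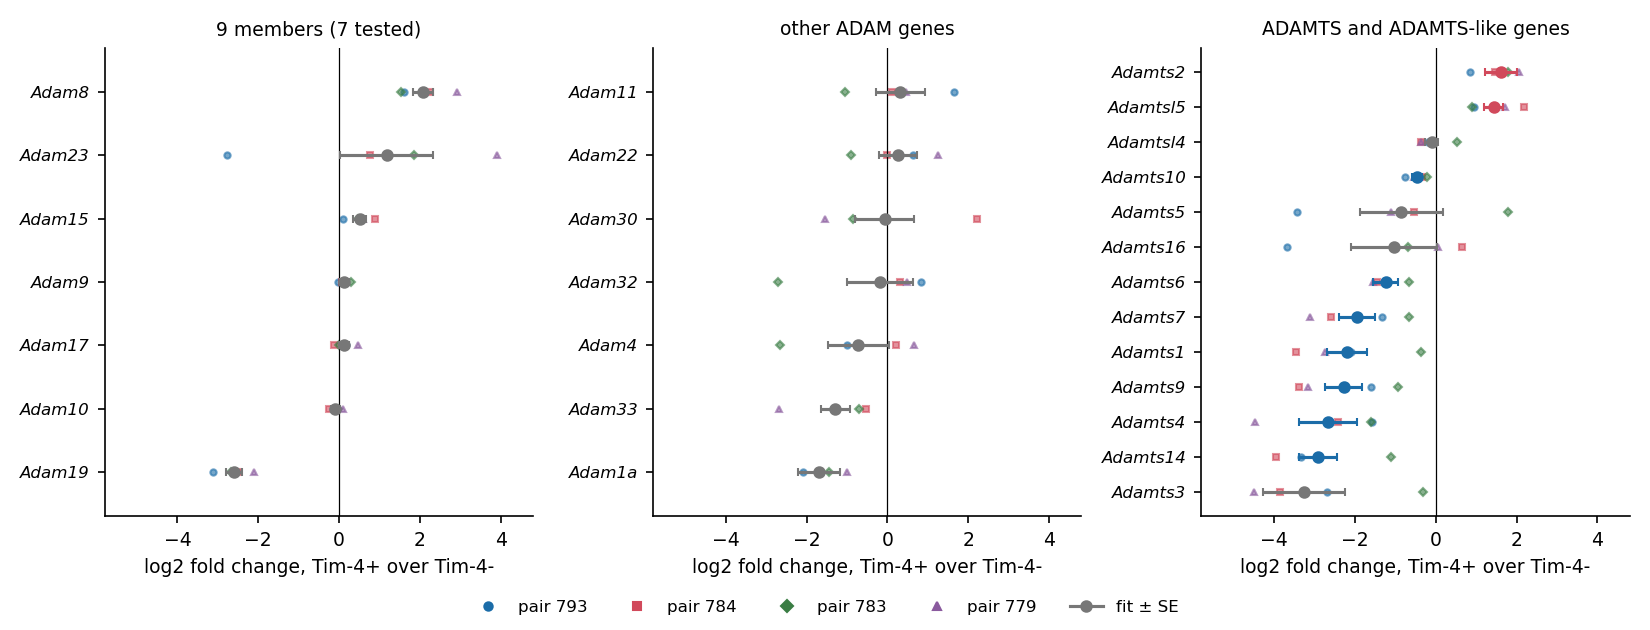
Log2 fold change (Tim-4+ over Tim-4-) of every tested gene of 3 groups. Large points with bars are the fit ± SE (red called higher, blue called lower, gray not called; members are gray throughout), and small points are the log2 ratios of the 4 pairs. Adam8 and Adam19 sit at 2.08 and -2.60 at either end of the members, and 7 ADAMTS genes are blue and 2 red.

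ADAMTS proteases are secreted relatives that lack the membrane anchor and act on matrix, and ADAMTS-like proteins resemble them without the protease domain. Of 24 such genes, 13 were tested, 2 were called higher and 7 lower in Tim-4+ TAMs (against 8.97% and 8.43% of all genes), and the median log2 fold change of the 13 was -1.24. The higher ones were Adamts2, which trims procollagen, at 1.62 ± 0.39 (edgeR adjusted p = 0.0291), and Adamtsl5 at 1.43 ± 0.23 (edgeR adjusted p = 0.0128). Adamts2 was scarce, at 0.62 to 1.95 CPM in Tim-4+ and 0.205 to 0.914 CPM in Tim-4- TAMs, and its groups overlapped. Adamtsl5 measured 84.1, 101, 88.9 and 68.1 CPM in Tim-4+ TAMs and 44, 22.2, 47.5 and 20.8 CPM in Tim-4- TAMs, without overlap.

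The lower ones included Adamts1, Adamts4 and Adamts9, which cut aggrecan and versican, and Adamts14, another procollagen protease. Adamts1 measured 21.6, 26.7, 22.6 and 30.0 CPM in Tim-4+ TAMs and 92.3, 291, 29.3 and 203 CPM in Tim-4- TAMs. Nearly all of its difference lay in 3 of the pairs, and in pair 783 the libraries were close. Its log2 fold change was -2.20 ± 0.50 (edgeR adjusted p = 0.0308). Adamts14 gave -2.92 ± 0.47 (edgeR adjusted p = 0.0125), Adamts4 -2.67 ± 0.72 (edgeR adjusted p = 0.0413) and Adamts9 -2.28 ± 0.45 (edgeR adjusted p = 0.0220). Of these, Adamts4 was scarce, at 0 to 0.36 CPM in Tim-4+ and 0.315 to 2.08 CPM in Tim-4- TAMs. Adamts7 followed at -1.95 ± 0.44 (edgeR adjusted p = 0.0306), Adamts6 at -1.24 ± 0.31 (edgeR adjusted p = 0.0338) and Adamts10 at -0.46 ± 0.12 (edgeR adjusted p = 0.0370). Adamts3, with the steepest fitted value in the list at -3.26 ± 1.01, was not called (edgeR adjusted p = 0.0638).

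The Tim-4- libraries of pairs 784 and 779 held the highest levels of Adamts1, Adamts7, Adamts9 and Adamts14. They also held the highest summed mesothelial and tumor epithelial markers (1266 and 1908 CPM) and fibroblast markers (163 and 173 CPM). The single markers did not all follow the sums. Most of the fibroblast sum in these libraries was Dcn, at 115 and 152 CPM. Dcn and Pdgfra were highest in the Tim-4- libraries of pairs 784 and 779, whereas Col1a1, Col1a2 and Col3a1 were lowest there. In Tim-4- TAMs Upk3b, Krt19 and Wt1 were higher in pair 784 than in pair 783, and Msln, Krt8, Krt18, Epcam and Muc16 were lower. Epcam and Muc16 were highest in the Tim-4- library of pair 783, at 11.2 and 45.7 CPM. Without pairs 784 and 779, a choice made after seeing the data, 0 ADAMTS genes were called lower and 1 higher. In the whole table, genes called lower then went from 1421 to 211 and genes called higher from 1512 to 392. Adamts1 read -1.25, Adamts9 -1.28 and Adamts7 -1.01, while Adamts14 read -2.25, Adamts6 -0.95 and Adamts10 -0.50. Adamts4 no longer passed the count filter. Leaving out pair 793, 784 or 779 alone also left 0 ADAMTS genes called lower, settings in which the genes called lower in the whole table went from 1421 to 470, 54 and 328, and leaving out pair 783 left 7. The fold changes of those still tested stayed below 0 in these settings, and without pair 793 Adamts1 read -2.24, Adamts9 -2.52 and Adamts7 -2.15. Of the 2 called higher, 1 was left without pair 793 and 0 without pair 784 or 779. Genes called higher in the whole table went from 1512 to 719, 78 and 445 there. The part of the other cells in these differences was not tested. Adam19 differed from Adamts1 and Adamts9 in which libraries were high. Its Tim-4- level in pair 783 was 71.7% of its maximum, against 10.1% for Adamts1 and 19.1% for Adamts9. In pair 779 it was 25.5%, against 69.8% and 63.5%. Adamts6 and Adamts10, also called lower, were not high in pair 784. Their Tim-4- levels were lowest there, at 0.929 and 89.4 CPM, and highest in pair 793, at 3.01 and 230 CPM.

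**Figure D4:**
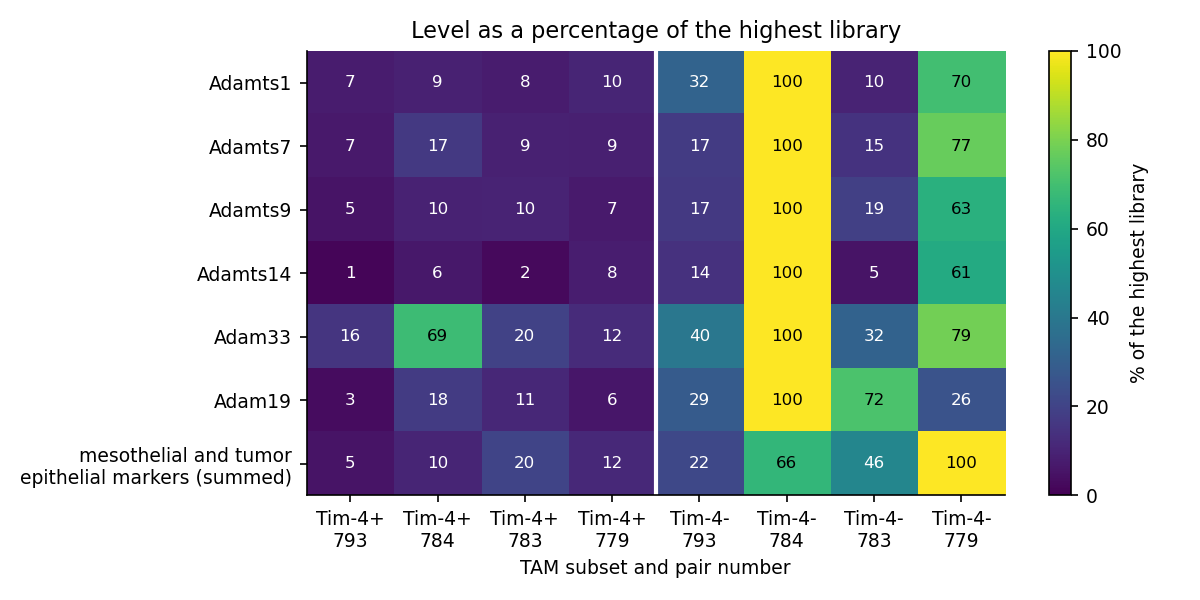
Level of 6 genes and of the summed mesothelial and tumor epithelial markers in each library as a percentage of the highest library (color and printed number), Tim-4+ libraries left and Tim-4- libraries right. The genes were picked for this plot after their values were seen. The 4 ADAMTS genes are high in the Tim-4- libraries of pairs 784 and 779, and Adam19 in those of pairs 784 and 783.

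The regulators cover the machinery that matures, carries and inhibits ADAM10 and ADAM17. Of 18 genes 15 were tested, 0 were called higher and 5 lower in Tim-4+ TAMs (against 8.97% and 8.43% of all genes), with a median log2 fold change of -0.24. At an unadjusted edgeR p under 0.05, 9 of the 15 passed, against 5671 of all 16861 genes tested. DESeq2 called 1 regulator higher and 7 lower, with 2194 genes higher and 2328 lower in the whole table. Every call in this list was lost without pair 784, a setting in which only 78 genes were called higher and 54 lower in the whole table.

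ADAM17 needs an iRhom protein to leave the endoplasmic reticulum, and Frmd8 keeps the complex at the cell surface. Rhbdf2, the iRhom of immune cells, measured 156 to 345 CPM in Tim-4+ and 113 to 251 CPM in Tim-4- TAMs, a log2 fold change of 0.31 ± 0.12 that was not called (edgeR adjusted p = 0.115). Rhbdf1, the other iRhom, was lower at 9.79 to 18.4 CPM against 19.0 to 36.9 CPM, with -0.89 ± 0.23 (edgeR adjusted p = 0.0371). Frmd8 measured 41.1, 53.9, 44.5 and 43.9 CPM in Tim-4+ TAMs and 77.1, 86.4, 73.3 and 108 CPM in Tim-4- TAMs. Its groups did not overlap, and its log2 fold change was -0.90 ± 0.13 (edgeR adjusted p = 0.00805) and -0.82 without pairs 784 and 779.

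ADAM10 is carried by the C8 tetraspanins. Tspan14, the abundant one here at 171 to 349 CPM over all libraries, did not pass the test at 0.13 ± 0.12, nor did Tspan5 and Tspan17. The scarce Tspan15 was called lower. It measured 0.483, 0.340, 2.65 and 1.56 CPM in Tim-4+ TAMs and 2.14, 2.36, 8.17 and 11.5 CPM in Tim-4- TAMs, a log2 fold change of -2.34 ± 0.29 (edgeR adjusted p = 0.00637). Tspan33, at 0.160 to 0.895 and 0.765 to 4.11 CPM, gave -1.90 ± 0.31 (edgeR adjusted p = 0.0106).

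The convertases Furin and Pcsk7 differed by 0.14 ± 0.14 and -0.05 ± 0.10 and did not pass the test. Among inhibitors, Timp2 was the most abundant at 1092 to 2073 CPM over all libraries and was not called (0.23 ± 0.14). Timp1 was lower in Tim-4+ TAMs at -1.65 ± 0.35 (edgeR adjusted p = 0.0221), with 1.55 to 6.16 CPM against 2.58 to 15.1 CPM. Timp3, the inhibitor that binds ADAM17 best, measured 24.1, 43.8, 42.1 and 17.2 CPM in Tim-4+ TAMs and 71.2, 235, 37.2 and 108 CPM in Tim-4- TAMs and was not called (-1.65 ± 0.48, edgeR adjusted p = 0.0602). It was highest in the same 2 Tim-4- libraries as Adamts1, Adamts7, Adamts9 and Adamts14. Without pairs 784 and 779 Timp1 and Rhbdf1 were no longer called (-0.88 and -0.52), a setting with 392 genes called higher and 211 lower in the whole table.

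Of 37 genes known to be shed by ADAM proteases, 34 were tested, 5 were called higher and 7 lower (against 8.97% and 8.43% of all genes), and the median log2 fold change was 0.16. The higher ones were Areg, Selplg, Cd163, Mertk and App, and Mertk is also one of the macrophage markers. Selplg, which encodes the selectin ligand PSGL-1, an ADAM8 substrate, measured 1370, 1001, 984 and 1426 CPM in Tim-4+ TAMs and 757, 274, 496 and 442 CPM in Tim-4- TAMs. Its groups did not overlap, and its log2 fold change was 1.35 ± 0.21 (edgeR adjusted p = 0.00883). App, cut by ADAM10, measured 1839 to 2133 CPM against 1203 to 1533 CPM, with 0.57 ± 0.15 (edgeR adjusted p = 0.0400). The efferocytosis receptor gene Mertk gave 0.57 ± 0.15 (edgeR adjusted p = 0.0388) and the hemoglobin scavenger receptor gene Cd163 1.15 ± 0.25 (edgeR adjusted p = 0.0255), both cut by ADAM17. Scaled by total counts, App and Mertk read 0.21 and 0.22 and were not called. Areg, an EGF receptor ligand freed by ADAM17, gave 2.44 ± 0.47 (edgeR adjusted p = 0.0158) at 0.560 to 7.22 CPM against 0.0957 to 0.884 CPM. In the 1 lane listed by symbol its place carried another symbol, and without that lane it was still called.

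The lower substrates were Vcam1, Lag3, Dll1, Cx3cl1, F11r, Havcr2 and Cxcl16. Vcam1, an endothelial and stromal adhesion gene also made by some macrophages, measured 1.74, 18.9, 12.4 and 4.14 CPM in Tim-4+ TAMs and 9.21, 173, 45.3 and 44.9 CPM in Tim-4- TAMs. Each Tim-4- library exceeded its partner, and the log2 fold change was -2.73 ± 0.28 (edgeR adjusted p = 0.00637). Pair 784 was highest in both subsets, but far above the rest only in Tim-4- TAMs. The transmembrane chemokines cut by ADAM10 were both lower, Cx3cl1 at -1.81 ± 0.44 (edgeR adjusted p = 0.0388) and Cxcl16 at -0.61 ± 0.13 (edgeR adjusted p = 0.0183). Cxcl16 measured 90.5, 200, 132 and 107 CPM in Tim-4+ TAMs and 134, 329, 162 and 196 CPM in Tim-4- TAMs. The inhibitory receptor genes Lag3 and Havcr2 gave -2.42 ± 0.47 (edgeR adjusted p = 0.0158) and -0.92 ± 0.19 (edgeR adjusted p = 0.0185). Lag3 was scarce, at 0.084 to 0.894 CPM in Tim-4+ and 1.68 to 3.01 CPM in Tim-4- TAMs. Dll1, a Notch ligand, gave -2.14 ± 0.45 (edgeR adjusted p = 0.0198) at 0.336 to 0.621 CPM against 0.955 to 3.24 CPM. F11r, the junction protein JAM-A, gave -1.63 ± 0.27 (edgeR adjusted p = 0.0147). Leaving out pair 793, 784, 783 or 779 left 3, 0, 8 and 1 substrates called higher and 2, 0, 11 and 3 called lower. In these settings the whole table gave 719, 78, 1573 and 445 genes called higher and 470, 54, 1895 and 328 called lower. Without pairs 784 and 779 together Selplg (0.91) and Vcam1 (-2.12) were still called and Lag3 no longer passed the count filter. Cx3cl1 read -0.85 without those 2 pairs, where the summed mesothelial and tumor epithelial markers of the Tim-4- libraries were highest, and their part was not tested.

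Other substrates of ADAM17 were not called. Tnf measured 54.8, 72.8, 35.1 and 185 CPM in Tim-4+ TAMs and 95.4, 35.7, 16.5 and 118 CPM in Tim-4- TAMs, a log2 fold change of 0.51 ± 0.32 (edgeR adjusted p = 0.323). It varied more between pairs than between subsets. The receptor genes Tnfrsf1a, Tnfrsf1b, Il6ra and Csf1r gave 0.27, -0.14, 0.14 and 0.25 on the log2 scale and were not called.

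**Figure D5:**
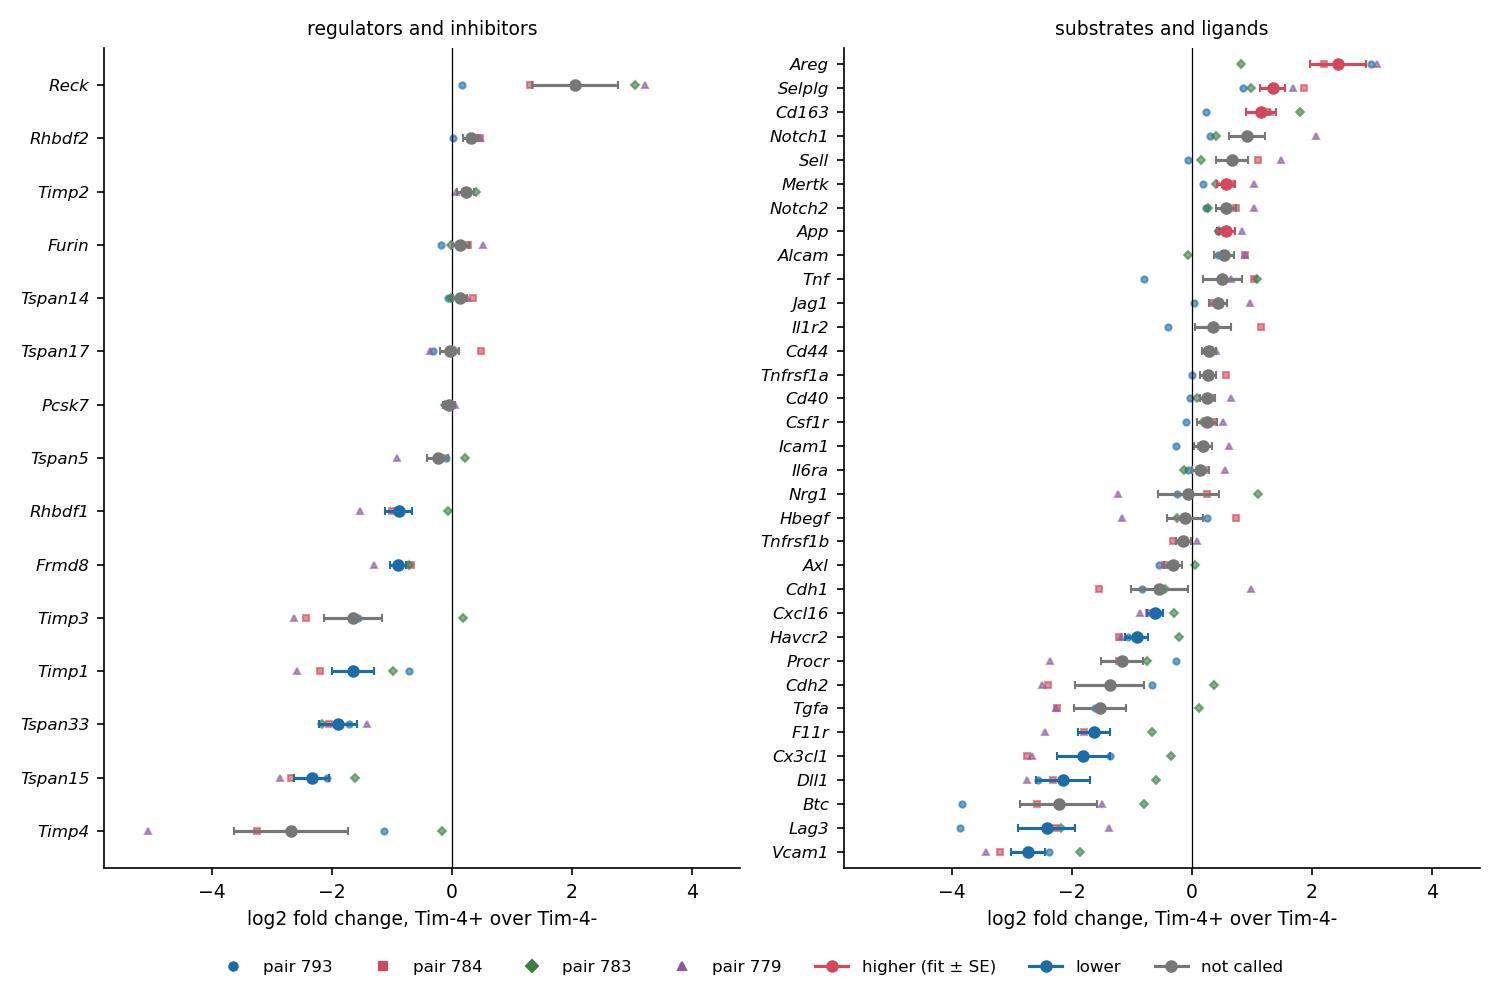
Log2 fold change (Tim-4+ over Tim-4-) of the tested regulators (left) and substrates (right). Large points with bars are the fit ± SE, colored by call, and small points are the log2 ratios of the 4 pairs. Called regulators all lie below 0, from -2.34 for Tspan15 to -0.89 for Rhbdf1, and substrates spread from Vcam1 at -2.73 to Areg at 2.44.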

How the data were processed

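RNA-Seq covered 8 TAM libraries, Tim-4+ and Tim-4- in 4 pairs, each sequenced in 2 lanes. Libraries were depleted of ribosomal RNA and stranded. What the authors deposited are raw counts of reads on each gene in each of the 16 lanes, without normalization. The submitters' notes name FastQC 0.11.3, TopHat2 2.0.13, Cufflinks and Cuffdiff 2.2.1 with GRCm38, and the counter is not given in the sources used here. Reads aligning to several places were set aside, so genes with near-identical copies are low.

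Lanes were summed, so that 1 library was 1 replicate. In 1 lane (Tim-4-, pair 793) genes are listed by symbol and were joined by order, with 96.9% of 53618 symbols matching. edgeR 4.0.16 (R 4.3.3) was run as a quasi-likelihood test with TMM factors, the pair block and Benjamini-Hochberg adjustment over 16861 genes (10 or more counts in 4 or more libraries). The SE is the log2 fold change divided by the square root of F. Pair ratios use log2 CPM with a prior count of 2. Labels give the pair numbers, and within pairs the deviations from the group means correlated at 0.277 to 0.498 over genes. P-values of the blocked fit set the subset difference against the variation between these libraries that was left once the pair effect was removed.

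The members, gene lists and tests were chosen with earlier results of these data known. Named are the members, the tested other ADAM genes, up to 8 called genes per direction in the other lists and the 5 most similar profiles, 1 of which is not reported here. Uncalled genes named by role (Adamts3, Rhbdf2, Tspan14, Tspan5, Tspan17, Furin, Pcsk7, Timp2, Timp3, Tnf, Tnfrsf1a, Tnfrsf1b, Il6ra and Csf1r) and the promoter motifs were chosen after their values were seen. Alternatives were DESeq2 1.42.0, other scalings and filters, no block, lane 2 only, longest transcripts and leaving out pairs. The fit was tested on simulated data. Protein sequences were not analysed here.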

Additional observations from a re-analysis of the deposited data

Results flagged for a closer look

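In 7 of 83 groups of 4 libraries, 1 library lay far from the other 3, by Dixon's gap-to-range ratio at its 95% limit (chance gives about 1 group in 20). Adam8 in Tim-4- TAMs was lowest in pair 779 at 60 CPM, with the others at 194 to 221 CPM. Adam12 in Tim-4- TAMs was highest in pair 784 at 0.0957 CPM, which is 7 counts. Adam23 in Tim-4+ TAMs was lowest in pair 793 at 0.042 CPM, with the others at 1.02 to 1.14 CPM. Adam33 in Tim-4+ TAMs was highest in pair 784 at 53.0 CPM, with the others at 9.50 to 15.1 CPM. Cd163 in Tim-4+ TAMs was highest in pair 783 at 248 CPM, with the others at 73.3 to 102 CPM. Havcr2 was highest in pair 783 in both subsets, at 53.1 CPM in Tim-4+ TAMs (others 8.07 to 11.8) and 61.3 CPM in Tim-4- TAMs (others 18.4 to 24.9).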

How the results depend on the processing

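Adam8 and Adam19 kept their direction in every alternative run. Leaving out 1 pair gave 1.79 to 2.25 for Adam8 and -2.77 to -2.44 for Adam19. With total counts Adam9, Adam10, Adam15 and Adam17 read -0.23, -0.45, 0.15 and -0.24, and 789 genes were called higher and 4903 lower (13.9% of calls higher, against 51.6%), with 2 other ADAM genes lower and 3 substrates higher and 12 lower. With no replicate block, so without the pairing, the calls were 147 higher and 85 lower, with 0 ADAMTS genes and 0 substrates in either direction and 1 regulator lower. DESeq2 called 2194 genes higher and 2328 lower, with 1 regulator and 9 substrates higher and 2 other ADAM genes lower. Without the filter 1508 genes were higher and 1354 lower, with 4 ADAMTS genes lower. With lane 2 only for all libraries, 1396 genes were higher and 1322 lower, with 1 ADAMTS gene higher and 1 other ADAM gene lower. Without pairs 784 and 779, 392 genes were higher and 211 lower, with 1 ADAMTS gene and 1 substrate higher, and 0 ADAMTS genes, 3 regulators, 1 substrate and 1 other ADAM gene lower. Leaving out 1 pair at a time gave 78 to 1573 genes higher and 54 to 1895 lower, with both lowest counts without pair 784. The lists then gave 0 to 2 ADAMTS genes and 0 to 8 substrates higher, and 0 to 7 ADAMTS genes, 0 to 6 regulators, 0 to 11 substrates and 0 to 1 other ADAM genes lower. With the longest transcript as the length, shares were 17.2% for Adam9 in Tim-4- TAMs, 9.89% and 16.1% for Adam10, 37.9% for Adam15 and 8.05% for Adam17 in Tim-4+ TAMs, and 0.0228% and 0.0139% for Adam23. Among uncalled genes Adam11 changed sign with total counts (-0.05) and without 1 pair (-0.17 to 0.82), Adam22 with total counts (-0.10), without pairs 784 and 779 (-0.13) and without 1 pair (-0.10 to 0.64), Adam30 with no block (0.48), with lane 2 only for the symbol-listed library (0.08) or for all (0.51) and without 1 pair (-0.88 to 0.47), and Adam32 without 1 pair (-0.58 to 0.61). The causes were not tested. Members under about 1 CPM are limited by depth.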
